A study of Homo sapiens with 6 samples.

Results

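The genes described here are 32 genes of cholesterol and fatty acid synthesis, taken as a fixed list by symbol from the 60658 genes in the deposited tables. They are 18 enzymes of the sterol arm, 8 enzymes of the fatty acid arm, 4 regulators of the SREBP transcription factors, the sterol carrier STARD4 and the acyl-CoA binding protein DBI. The list was drawn up by function and does not hold every gene of these pathways. Messenger RNA was sequenced in 6 human lines of prostate cancer, each by 1 library. C4-2B, a castration-resistant and androgen receptor-positive line, gave rise to TaxR under docetaxel, and TaxR gave rise to CabR under cabazitaxel. DU145, a line that grows without androgen, gave rise to DTXR under docetaxel, and DTXR to CTXR under cabazitaxel. The resistant lines were kept under 5 nM of their drug and, per the labels, no line was treated before harvest. CabR and CTXR therefore carry a history of both taxanes, which are drugs that stabilise microtubules. TaxR is titled with the word old, left unexplained in the labels, and whether a line is a clone or a pool is not given in the sources used here.

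Cells build cholesterol from acetyl-CoA through mevalonate, farnesyl diphosphate, squalene and lanosterol, and build fatty acids from the same acetyl-CoA through malonyl-CoA. Both arms are controlled by SREBP transcription factors, which are held in the endoplasmic reticulum by SCAP and INSIG proteins when sterols are plentiful and are released to the nucleus when sterols are scarce. In prostate cancer cells androgen signalling is known to raise lipid synthesis, and fatty acid synthase is often abundant. The comparison of each resistant line with its parent asks how far these genes differ with taxane resistance, and whether the sterol and fatty acid arms differ together.

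Values are FPKM, fragments scaled to transcript length and to sequencing depth, which allow levels to be compared between genes per unit length. All 32 members reached 1 FPKM in every library, and the lowest member value was 3.55 FPKM. Ratios are on the log2(FPKM + 1) scale, and a gene is called higher or lower at a log2 ratio of at least 1 in size. Each ratio sets 1 library against 1 library, without replicate or p-value, and the read depth of the libraries is unknown. FPKM summed to 711766 to 818430 in a library, and mitochondrially encoded genes held 17.9% to 40.7% of it. All 8 C4-2B-side marker genes reached 1 FPKM in the 3 lines of that lineage, as did all 8 DU145-side markers in the DU145 lineage. In TaxR all 8 DU145-side markers reached 1 FPKM, against 1 in C4-2B and 2 in CabR, with summed levels of 85.8, 61.8 and 43.8 FPKM against 2333 in DU145. VIM alone had 60.8, 61.0 and 41.3 FPKM of the sums in TaxR, C4-2B and CabR. By the size rule 7 of the 8 markers were higher in TaxR than in C4-2B, where 2.52% of measured genes were. The median excess of these markers in TaxR over C4-2B was 1.38% of the distance to DU145, and with that share of the DU145 values subtracted every member kept its call in both comparisons that use TaxR. In bulk RNA, fewer cells of a kind and less RNA per cell cannot be told apart.

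The summed levels of the regulators and of both enzyme arms were above those of DU145 in C4-2B. The 4 regulators together had 1198 FPKM in C4-2B and 172.6 in DU145. The 8 fatty acid genes together had 3312 FPKM in C4-2B against 2125 in TaxR and 1491 in CabR. Along the DU145 lineage they had 551 FPKM in DU145 against 705 in DTXR and 597 in CTXR. The sum was thus highest in C4-2B and stepped down along its lineage, while the DU145 lineage stayed in a narrow low range. The 18 sterol genes summed to 1366, 1453 and 1329 FPKM across C4-2B, TaxR and CabR and to 595, 1000.4 and 967 FPKM across DU145, DTXR and CTXR. C4-2B had a fatty acid sum 2.42 times its sterol sum, TaxR 1.46 times and CabR 1.12 times. In the DU145 lineage the sterol sum was the larger in every line, with quotients of 0.925, 0.704 and 0.617. FASN, SCD and FADS2 carried 55.1% to 86.4% of the fatty acid sum, so that quotient describes mainly these 3 genes.

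**Figure D1:**
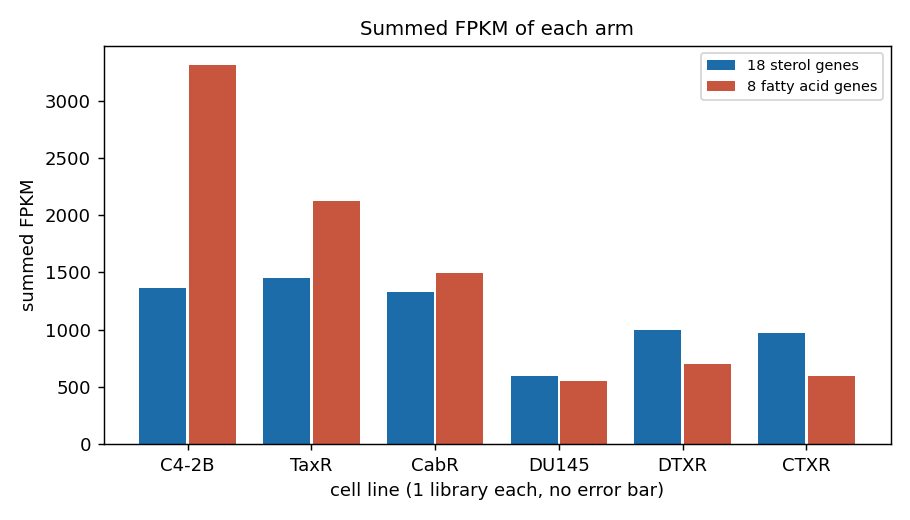
Bars show summed FPKM of the 18 sterol genes and of the 8 fatty acid genes in each of the 6 lines, with 1 library per line and no error bar. The fatty acid sum stepped from 3312 to 1491 FPKM along the C4-2B lineage, while the sterol sum rested between 1329 and 1453.

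Of the 32 members, 18 had higher FPKM in all 3 lines of the C4-2B lineage than in any line of the DU145 lineage, against 28.6% of measured genes. The opposite order held for 2 members, SQLE and ELOVL6, against 27.2% of measured genes. All 4 SREBP regulators, 6 of 8 fatty acid genes and 7 of 18 sterol genes were among the 18. The lines of a lineage descend from each other and are not independent replicates, so these counts carry no test. The heat map of levels shows the same order.

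**Figure D2:**
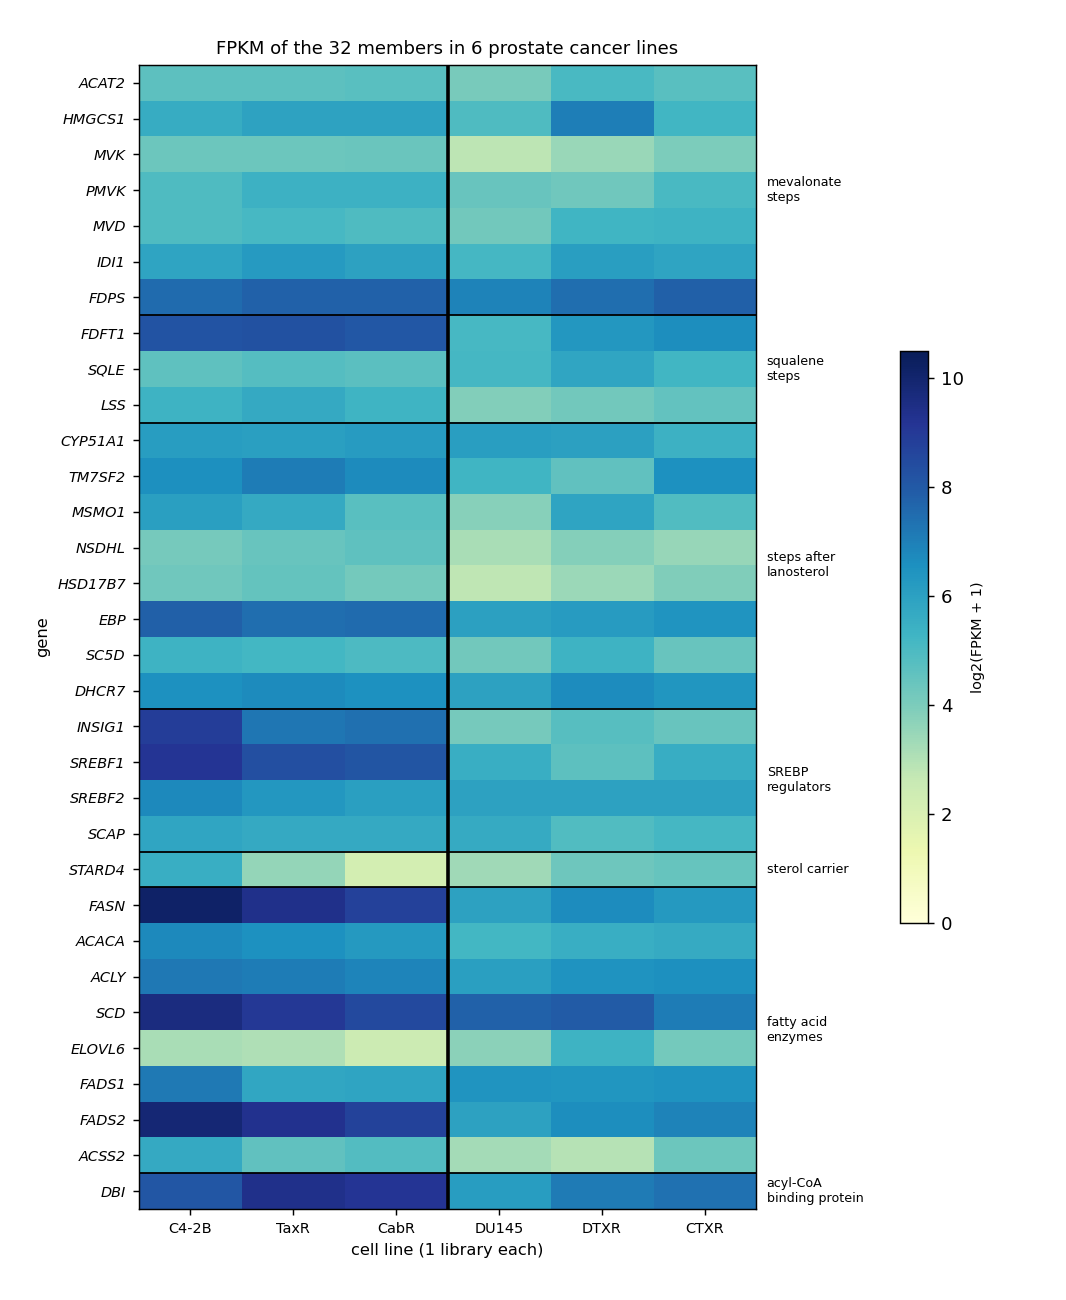
Each cell shows the log2(FPKM + 1) of 1 member, in rows grouped by role, in 1 of the 6 lines, in columns with a line between the lineages. FASN in C4-2B, at 1147 FPKM, is the darkest cell and STARD4 in CabR, at 3.55 FPKM, the palest.

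In the C4-2B lineage every fatty acid gene had a ratio below 0, while the sterol median lay near 0. TaxR had 4 members lower than C4-2B, where 5.64% of measured genes were lower, and 1 higher, where 2.52% were. CabR had 7 members lower than C4-2B, where 6.2% of measured genes were lower, and 1 higher, where 2.67% were. The median log2 ratio of the sterol arm was 0.19 in TaxR and 0.03 in CabR, and that of the fatty acid arm was -0.58 and -0.97. All 18 sterol genes in TaxR and 17 in CabR lay above the fatty acid median. Over the genes with at least 1 FPKM in all 6 libraries the medians were -0.01 and -0.01. Both comparisons use the same C4-2B library, so a high or low value in it enters both.

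In the DU145 lineage the medians of both arms were above 0, that of the sterol arm by more. DTXR had 8 members higher than DU145, where 5.37% of measured genes were higher, and none lower, where 5.1% were. CTXR had 9 members higher than DU145, where 7.45% of measured genes were higher, and none lower, where 5.47% were. For DTXR and CTXR the sterol arm had medians of 0.70 and 0.67, and the fatty acid arm 0.38 and 0.47. Over the genes with at least 1 FPKM in all 6 libraries the medians were 0.03 and -0.02. The sterol median exceeded the fatty acid median by 0.76 in TaxR and 0.9996 in CabR, but by 0.32 in DTXR and 0.20 in CTXR. The gap between the arms was thus wider in both C4-2B sublines than in both DU145 sublines. These 2 comparisons share the DU145 library.

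**Figure D3:**
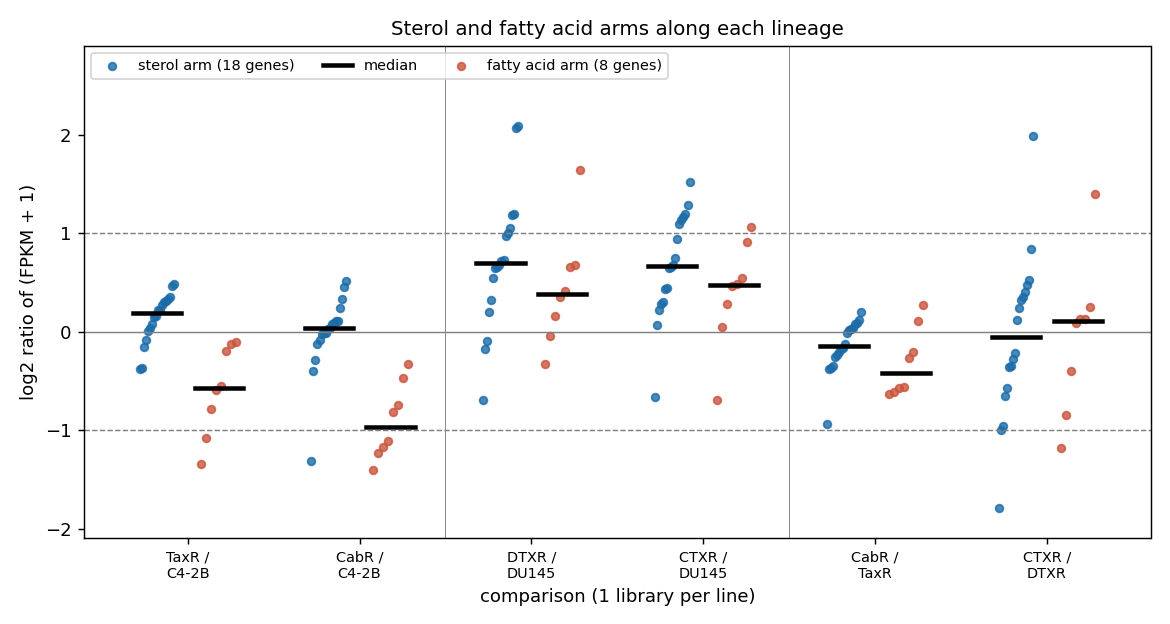
Points are log2 ratios of (FPKM + 1) of single genes, 18 sterol and 8 fatty acid, in 6 comparisons of 1 library with 1 library; black bars are medians and dashed lines mark a ratio of 1 in size. The fatty acid points lie below 0 in TaxR and CabR, with medians of -0.58 and -0.97, while the sterol medians there are 0.19 and 0.03.

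The promoters of 6 members are shown because the data place these genes in different patterns. HMGCS1 and MSMO1 were the sterol enzymes with the largest ratios in DTXR, SREBF2 and INSIG1 are regulators, STARD4 had the lowest ratio of all members and DBI was higher in every subline. The sequences are from RefSeq on GRCh38.p14, 5′ to 3′ on the strand of the gene, and end before the first annotated transcript start. Capitals mark matches on either strand to the sterol regulatory element TCACNCCAC, the E-box CACGTG, the CCAAT box CCAAT or the GC box GGGCGG.
HMGCS1, chr5:43313513-43313662, minus strand: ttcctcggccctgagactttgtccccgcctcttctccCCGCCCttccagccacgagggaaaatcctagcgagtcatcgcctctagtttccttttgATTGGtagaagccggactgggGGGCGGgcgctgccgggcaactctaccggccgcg
MSMO1, chr4:165327419-165327622, plus strand: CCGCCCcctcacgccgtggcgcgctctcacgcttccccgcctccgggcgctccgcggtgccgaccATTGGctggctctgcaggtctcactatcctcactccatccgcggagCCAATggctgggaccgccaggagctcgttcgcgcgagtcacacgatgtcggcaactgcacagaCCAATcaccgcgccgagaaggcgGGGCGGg
SREBF2, chr22:41832855-41833078, plus strand: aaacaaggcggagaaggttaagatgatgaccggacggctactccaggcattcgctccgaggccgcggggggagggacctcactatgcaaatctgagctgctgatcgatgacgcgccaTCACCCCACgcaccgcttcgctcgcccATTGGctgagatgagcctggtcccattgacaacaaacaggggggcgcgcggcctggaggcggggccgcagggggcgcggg
INSIG1, chr7:155297628-155297775, plus strand: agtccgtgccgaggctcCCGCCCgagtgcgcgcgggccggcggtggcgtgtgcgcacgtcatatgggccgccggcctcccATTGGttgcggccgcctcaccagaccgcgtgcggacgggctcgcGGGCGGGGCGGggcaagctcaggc
STARD4, chr5:111512591-111512785, minus strand: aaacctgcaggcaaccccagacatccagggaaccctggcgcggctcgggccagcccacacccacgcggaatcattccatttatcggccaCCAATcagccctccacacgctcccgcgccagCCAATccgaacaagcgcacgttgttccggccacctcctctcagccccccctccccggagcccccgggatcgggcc
DBI, chr2:119366727-119366920, plus strand: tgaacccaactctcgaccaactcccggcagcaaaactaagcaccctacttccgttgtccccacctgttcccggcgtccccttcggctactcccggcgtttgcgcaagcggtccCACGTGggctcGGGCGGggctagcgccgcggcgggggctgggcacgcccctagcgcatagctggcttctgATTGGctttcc
Of these windows that of SREBF2 alone holds an exact match to TCACNCCAC, and a CCAAT box lies in all 6. Other forms of the sterol regulatory element were not searched for, so the other windows may hold them. In INSIG1, a pair of GC boxes overlap each other.

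Promoter entries were found for 28 of the 32 members, in 41 windows since some genes have several starts. ACAT2, FDFT1, SQLE and FASN had none. In the 250 bases before the start, a CCAAT box was present in 65.9% of member windows, against 32.01% of all 35116 windows and 32.8% of the windows of measured genes. The GC box was present in 87.8% of member windows, 42.6% of all windows and 62.6% of those of measured genes. The E-box was present in 14.6%, 6.345% and 8.24% of these windows, in the genes SC5D, INSIG1, SCAP and DBI. TCACNCCAC was found in SREBF2 only, 133 bases before its start, and in 0.883% of all windows. A CCAAT box was found in genes that were higher, such as HMGCS1, MVD and MSMO1 in DTXR, and in genes that were lower, such as STARD4 and SCD in CabR.

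Of the 7 mevalonate genes none was called in the C4-2B sublines, while 3 were higher in DTXR and 2 in CTXR. Of all measured genes 5.37% were higher in DTXR and 7.45% in CTXR. In TaxR and CabR 2.52% and 2.67% were higher and 5.64% and 6.2% lower, so no call among 7 genes lies near those shares. The median log2 ratio of the 7 mevalonate genes was 0.22 for TaxR and 0.11 for CabR, while DTXR had 0.97 and CTXR 0.75. HMGCS1, the HMG-CoA synthase that commits acetyl units to mevalonate (chromosome 5, 43289395 to 43313512, GRCh38), had 48.1 FPKM in C4-2B against 59.3 in TaxR and 60.7 in CabR. Along the DU145 lineage HMGCS1 had 30.1 FPKM in DU145 against 129.7 in DTXR and 36.8 in CTXR. Only DTXR stood out, with log2 ratios of 2.07 against DU145 and, for CTXR against DTXR, of -1.79. ACAT2, the cytosolic thiolase that joins acetyl-CoA units, had 23.9, 24.5 and 25.8 FPKM across C4-2B, TaxR and CabR and 15.9, 32.9 and 25.5 in DU145, DTXR and CTXR. Its DTXR ratio of 1.005 rested on the limit of the size rule and came below it in each of 3 rescalings of the libraries, at 0.94 to 0.99. ACAT2 also shares 397 exon bases with TCP1 on the opposite strand, a gene at 82.7 to 212 FPKM, and no source used here states the use of strand in counting.

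MVD, the decarboxylase that makes isopentenyl diphosphate, had 29.9, 33.2 and 29.5 FPKM across C4-2B, TaxR and CabR. In DU145, DTXR and CTXR it had 17.4, 37.1 and 40.3 FPKM and both sublines were above every line of the C4-2B lineage. MVK, mevalonate kinase, had 19.0, 19.1 and 19.4 FPKM along the C4-2B lineage and 5.97, 10.1 and 14.98 along the DU145 lineage, higher by the size rule in CTXR. FDPS, which makes farnesyl diphosphate, was the most abundant mevalonate gene, with 184, 215 and 218 FPKM across C4-2B, TaxR and CabR and 118, 172 and 227 in DU145, DTXR and CTXR. It was not past the size rule in any subline, with a highest log2 ratio of 0.94 in CTXR. IDI1, the isopentenyl diphosphate isomerase, and PMVK, phosphomevalonate kinase, ranged from 34.0 to 73.6 and from 17.8 to 41.5 FPKM and were not past the rule either. PMVK was the one mevalonate gene with a ratio below 0 in DTXR, at -0.18.

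Among the squalene steps FDFT1 stood out in the DU145 lineage. FDFT1, squalene synthase, takes farnesyl diphosphate into the sterol branch. It had 287, 304 and 262 FPKM across C4-2B, TaxR and CabR, and 33.9, 78.8 and 99.0 in DU145, DTXR and CTXR. The DU145 sublines were thus above their parent, with log2 ratios of 1.19 and 1.52, and still below every line of the C4-2B lineage. SQLE, squalene epoxidase, ranged from 23.5 to 57.3 FPKM and LSS, lanosterol synthase, from 13.6 to 50.6 FPKM, and neither passed the size rule. SQLE was 1 of the few members higher in the DU145 lineage, with 34.3 to 57.3 FPKM there against 23.5 to 27.5 in the C4-2B lineage.

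The steps after lanosterol did not move as a block. MSMO1, a methylsterol monooxygenase that removes methyl groups from the ring (chromosome 4, 165327623 to 165343160), had 65.5 FPKM in C4-2B against 50.1 in TaxR and 25.7 in CabR. It had 12.9 FPKM in DU145 against 58.1 in DTXR and 28.5 in CTXR. It was the 1 sterol enzyme lower in CabR, at a log2 ratio of -1.32, and was higher in DTXR and CTXR at 2.09 and 1.09. TM7SF2, a sterol reductase, had 95.9, 134 and 103 FPKM across C4-2B, TaxR and CabR and 37.2, 22.6 and 92.3 in DU145, DTXR and CTXR. It ran opposite to MSMO1 in the step from DTXR to CTXR, where its log2 ratio was 1.98 and that of MSMO1 was -0.999.

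SC5D, a sterol desaturase, had 40.1, 35.9 and 30.2 FPKM along the C4-2B lineage and 17.2, 40.3 and 20.2 along the DU145 lineage, and was higher in DTXR alone at 1.18. HSD17B7, a sterol ketoreductase, had 17.9, 21.8 and 16.8 FPKM along the C4-2B lineage and 5.82, 9.73 and 13.9 along the DU145 lineage, and was higher in CTXR at 1.13. A pseudogene copy, HSD17B7P2, was listed at 0.582 to 4.21 FPKM, so reads of HSD17B7 may have been divided between the copies. EBP, the sterol isomerase, was the most abundant gene of these steps in C4-2B, with 225, 173 and 184 FPKM across C4-2B, TaxR and CabR and 62.8, 72.0 and 85.2 in DU145, DTXR and CTXR. The lanosterol demethylase CYP51A1 ranged from 41.6 to 70.8 FPKM, the sterol dehydrogenase NSDHL from 8.17 to 23.7 and DHCR7, the reductase that yields cholesterol, from 61.1 to 104. None of these 3 passed the size rule, and CYP51A1 had the lowest sterol ratio of CTXR, at -0.67.

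All 4 SREBP regulators had ratios below 0 in both C4-2B sublines, and only INSIG1 passed the size rule there. INSIG1, which anchors the SREBP complex in the endoplasmic reticulum and is itself a target of SREBP (chromosome 7, 155297776 to 155310235), had 471 FPKM in C4-2B against 152 in TaxR and 169 in CabR. It had 16.3 FPKM in DU145 against 26.5 in DTXR and 20.1 in CTXR. The C4-2B line stood far above all others, with log2 ratios of -1.63 for TaxR and -1.48 for CabR, while DTXR had 0.67 and CTXR 0.29. SREBF1, whose products act mainly on fatty acid genes, had 566, 315 and 283 FPKM across C4-2B, TaxR and CabR and 45.2, 23.9 and 46.0 in DU145, DTXR and CTXR. Its CabR ratio was -0.998, just outside the size rule, its TaxR ratio -0.84 and its DTXR ratio -0.89.

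SREBF2, whose product acts mainly on sterol genes, had 105, 80.7 and 65.9 FPKM across C4-2B, TaxR and CabR. It had 62.0, 61.2 and 61.1 FPKM across DU145, DTXR and CTXR, the flattest profile of any member in that lineage. SCAP, the sterol-sensing escort of SREBP, had 55.9, 50.6 and 49.6 FPKM along the C4-2B lineage and 49.1, 28.8 and 34.5 along the DU145 lineage. In DTXR 6 of 18 sterol enzymes were higher, against 5.37% of measured genes. The DTXR ratios of SREBF1, SREBF2 and SCAP were -0.89, -0.02 and -0.75, and that of INSIG1 was 0.67.

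STARD4, a protein that carries cholesterol between membranes (chromosome 5, 111496033 to 111512590), had the lowest ratio of the list. It had 44.3 FPKM in C4-2B against 10.7 in TaxR and 3.55 in CabR, and 9.24 in DU145 against 18.7 in DTXR and 20.6 in CTXR. The level stepped down along the C4-2B lineage, at log2 ratios of -1.96 and -3.32 to the parent, and was about the same in DTXR and CTXR, at 0.94 and 1.08. STARD4 and MSMO1 were the 2 members that went opposite ways in the lineages with at least 1 subline past the rule in each, against 0.877% of measured genes. It was the 1 member called in CabR against TaxR, at -1.36, where 1.84% of measured genes were lower and 1.75% higher.

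**Figure D4:**
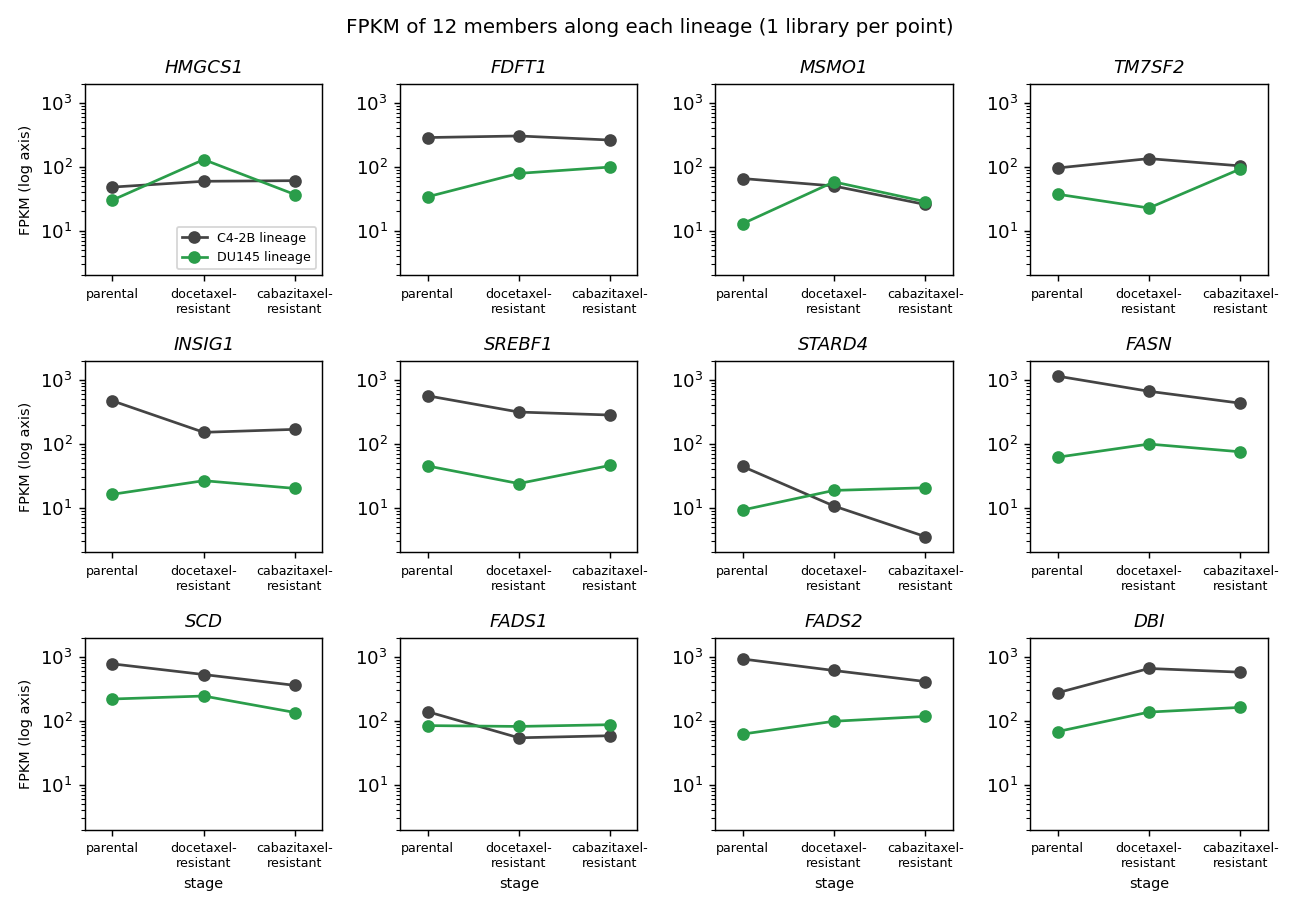
Each panel shows 1 gene, with FPKM on a log axis against stage, for the C4-2B lineage and the DU145 lineage, 1 library per point. STARD4 runs from 44.3 to 3.55 FPKM along the C4-2B lineage and from 9.24 to 20.6 along the other, while DBI is above its parent in all 4 sublines.

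FASN, the synthase that builds palmitate (chromosome 17, 82078333 to 82098332), was the most abundant member in C4-2B. It had 1147 FPKM in C4-2B against 665 in TaxR and 433 in CabR, and 61.9 in DU145 against 99.3 in DTXR and 75.2 in CTXR. TaxR had a log2 ratio of -0.79 and CabR of -1.40. SCD, the desaturase that makes oleate from stearate, had 782, 533 and 361 FPKM along the C4-2B lineage and 221, 246 and 136 along the DU145 lineage. CabR was lower by the size rule, at -1.12, and SCD was the 1 fatty acid gene below its parent in CTXR, at -0.70, although FADS1 came to -0.09 there with libraries set to the same total. In the step to cabazitaxel resistance SCD had ratios of -0.56 in CabR and -0.85 in CTXR.

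FADS1 and FADS2, the desaturases of polyunsaturated fatty acids, lie on opposite strands of chromosome 11, where the annotated span of FADS1 (61799625 to 61829318) falls within that of FADS2 (61792980 to 61867354). FADS1 had 139.8 FPKM in C4-2B against 54.5 in TaxR and 58.8 in CabR, and 84.7, 82.1 and 87.5 in DU145, DTXR and CTXR. FADS2 had 933, 616 and 414 FPKM across C4-2B, TaxR and CabR, and 62.4, 98.9 and 117.8 in DU145, DTXR and CTXR. FADS1 was lower in TaxR and CabR alike, at -1.34 and -1.24. FADS2 was lower in CabR, at -1.17, and had a ratio of -0.60 in TaxR, which did not pass the rule. The FADS2 level exceeded that of FADS1 in all lines of the C4-2B lineage and was below it in DU145. They share 490 exon bases on opposite strands, so reads of one may have been given to the other if strand was not used.

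ACSS2, which makes acetyl-CoA from acetate, had 49.8, 22.9 and 27.7 FPKM across C4-2B, TaxR and CabR and 8.62, 6.65 and 19.1 in DU145, DTXR and CTXR. It was lower in TaxR, at -1.09, and higher in CTXR, at 1.06 against DU145 and 1.40 against DTXR. ELOVL6, the elongase of palmitate, had 8.02, 7.35 and 4.39 FPKM along the C4-2B lineage and 12.1, 39.8 and 17.0 along the DU145 lineage. Like HMGCS1 it was highest in DTXR, with ratios of 1.64 against DU145 and -1.18 for CTXR against DTXR. ACLY, the citrate lyase that supplies cytosolic acetyl-CoA, ranged from 65.1 to 146 FPKM and ACACA, the carboxylase that makes malonyl-CoA, from 35.2 to 105. Neither passed the size rule, and both had ratios below 0 in TaxR and CabR and above 0 in DTXR and CTXR.

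DBI, which binds long-chain acyl-CoA esters in the cytosol (chromosome 2, 119366921 to 119372560), was the 1 member higher in every subline. It had 276 FPKM in C4-2B against 663 in TaxR and 580.1 in CabR, and 68.3 in DU145 against 138 in DTXR and 163 in CTXR. In each lineage both sublines were above the parent, with log2 ratios of 1.26, 1.07, 1.002 and 1.24. No member was lower in all 4 sublines, as 0.12% of measured genes were. Of all measured genes 4, or 0.0229%, were higher in all 4, and the other 3 were ABCB1, STEAP1B and TMSB4X. The DTXR ratio rested on the limit of the rule and was 0.93 to 0.98 in the 3 rescalings. The levels themselves remained apart by lineage, the lowest C4-2B-lineage value being above the highest DU145-lineage value.

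**Figure D5:**
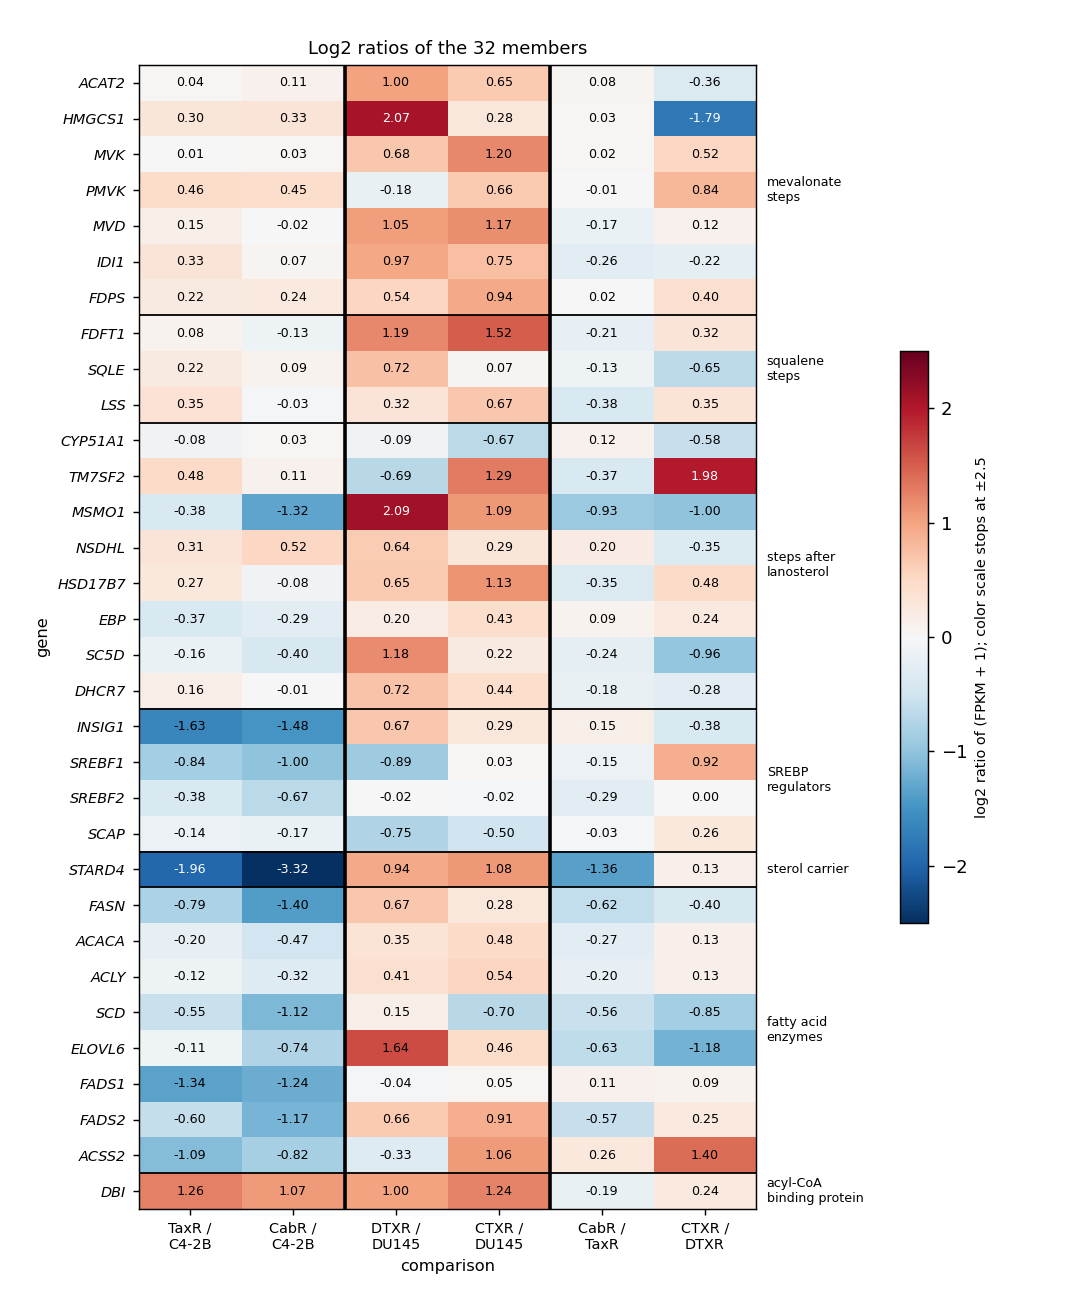
Each cell gives the log2 ratio of (FPKM + 1) of 1 member in 1 of 6 comparisons, colored from blue for lower to red for higher. The fatty acid, regulator and STARD4 rows are blue in the TaxR and CabR columns, the sterol rows are mostly red in the DTXR and CTXR columns, and DBI is red in all 4 columns against a parent.

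The step from docetaxel to cabazitaxel resistance is given for each lineage, and the difference between them was not tested. CabR against TaxR had a sterol median of -0.15 and a fatty acid median of -0.42, with 6 of 8 fatty acid genes below 0. CTXR against DTXR had medians of -0.05 and 0.11, with wide spreads of -1.79 to 1.98 in the sterol arm and -1.18 to 1.40 in the fatty acid arm. There 2 of 32 members were higher, TM7SF2 and ACSS2, and 2 lower, HMGCS1 and ELOVL6, where 7.29% of measured genes were higher and 5.25% lower, so these counts lay near the share over all genes. SREBF1 stood at 0.92 in that step.

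Replication exists in this design only as the repeat of the selection in 2 parental lines. A limma fit to all 6 libraries with lineage and stage as terms called no member at a Benjamini-Hochberg adjusted p below 0.05 in any of its 3 contrasts, and 0% of the 17436 measured genes. At an unadjusted p below 0.05 there were 4 members for docetaxel-resistant minus parental, 2 for cabazitaxel-resistant minus parental and 1 for cabazitaxel-resistant minus docetaxel-resistant, or 12.5%, 6.25% and 3.125% of the list against 4.43%, 4.79% and 2.39% of all genes. DBI had the smallest p of the list, with a difference of 1.16 ± 0.23 (SE) for cabazitaxel-resistant minus parental, limma adjusted p = 0.86. For docetaxel-resistant minus parental the DBI difference was 1.13 ± 0.23 (SE), adjusted p = 0.93. SCD, at -0.91 ± 0.25 (SE) with an adjusted p of 0.86 in the limma fit, was the other member of the cabazitaxel contrast. Its ratio was -1.12 in CabR and -0.70 in CTXR, of which only the first passed the size rule. In the docetaxel contrast the other 3 were HMGCS1, IDI1 and SREBF1.

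A second limma fit asked whether the difference between resistant and parental lines differed between the lineages, with TaxR and CabR pooled as resistant lines and DTXR and CTXR likewise. No member and no other gene passed an adjusted p of 0.05, and 7 members, or 21.9%, had an unadjusted p below 0.05 against 9.52% of all genes. All 7 differences were in the direction of a higher ratio in the DU145 lineage. INSIG1 differed by 2.03 ± 0.34 (SE) and FADS1 by 1.29 ± 0.24 (SE), both with a limma adjusted p of 0.39. The others were FDFT1, STARD4, MVD, FADS2 and FASN. In this fit each parent is 1 library and each pair of sublines stands for replicates although 1 descends from the other.

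Genes next to these pathways were taken from lists set out by function. Of 19 measured genes of other fatty acid chain building, desaturation and activation, TaxR had 3 lower and CabR 6, none was higher, and the list had medians of -0.22 and -0.50. Over all measured genes 5.64% and 6.2% were lower in these lines. ELOVL5, an elongase of polyunsaturated fatty acids, had 589, 355 and 189.7 FPKM across C4-2B, TaxR and CabR. ACSL3, a long-chain acyl-CoA synthetase, had 389, 159 and 127 FPKM, and the elongase ELOVL7 had 132, 55.0 and 43.3. ME1, the malic enzyme that supplies NADPH, had 46.9, 31.7 and 14.4 FPKM. ELOVL2, another elongase, had the lowest ratios of this list in both lines, at -2.67 and -2.89, with 6.43, 0.165 and 0 FPKM. ELOVL2 was higher in DTXR, at 1.60. In the DU145 lineage the same list had 1 member higher and 1 lower in each subline, near the shares over all genes of 5.37% and 5.1% in DTXR and 7.45% and 5.47% in CTXR, and medians of 0.09 and 0.04. SLC25A1, the mitochondrial citrate carrier, was higher in CTXR, with 38.2, 70.6 and 101 FPKM across DU145, DTXR and CTXR.

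In the other 4 lists at most 1 gene was called in any comparison with a parent. Of all measured genes 5.64% were lower in TaxR, 6.2% in CabR and 5.47% in CTXR, while 5.37% were higher in DTXR and 7.45% in CTXR. A single call in a list of 8 to 13 genes is therefore not read as a result about that list. Of 12 genes of fatty acid oxidation none was called in TaxR, CabR or DTXR, and CPT1A, the gate of mitochondrial fatty acid import, was lower in CTXR with 22.0, 17.8 and 9.78 FPKM across DU145, DTXR and CTXR. Of 8 genes of the isoprenoid branches none was called against a parent. Among 9 genes of sterol sensing and SREBP processing 1 was lower in TaxR and CabR, INSIG2, the second INSIG gene, with 58.0, 9.71 and 12.2 FPKM across C4-2B, TaxR and CabR and 8.36, 10.8 and 12.4 in the other lineage. Of 13 measured genes of sterol transport, storage and efflux, NPC1, which exports cholesterol from lysosomes, was lower in CabR, with 63.5, 41.8 and 26.1 FPKM. NPC2, its soluble partner, was higher in DTXR with 47.7, 206 and 77.0 FPKM across DU145, DTXR and CTXR, and MYLIP in CTXR with 8.43, 8.33 and 19.1. The sterol sensing list had medians of -0.27 for TaxR and -0.29 for CabR, while DTXR had 0.04 and CTXR -0.15. Sterol transport had -0.24, -0.18, 0.13 and 0.37 in the same order. The medians of the oxidation list lay between 0.11 and 0.20 and those of the isoprenoid branches between 0.12 and 0.19.

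Some measures of cell state moved with the fatty acid arm. Of the 8 C4-2B-side markers, several of which are androgen receptor targets, 1 was lower in TaxR and 3 in CabR. Of all measured genes 5.64% and 6.2% were lower in these lines. The summed level of the 8 markers was 5251 FPKM in C4-2B against 4384 in TaxR and 2445 in CabR, against 8.95 to 14.01 in the DU145 lineage. The share of FPKM on mitochondrially encoded genes was 17.9% for C4-2B but 27.9% for TaxR and 26.5% for CabR. Taken as a share of the FPKM outside mitochondrial genes, the fatty acid arm was 0.566% for C4-2B but 0.371% for TaxR and 0.266% for CabR, and the sterol arm 0.234%, 0.254% and 0.237%. The part of these markers in the lower fatty acid values was not tested.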

How the data were processed

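FPKM of 60658 Ensembl genes, 1 table for each library, were deposited by the authors, per the file headers. The submitters' processing notes list GRCh38 as the build and, with no version, HISAT, StringTie and Cuffnorm. For the annotation, strand use and joint scaling of libraries the entry is: not given in the sources used here. FPKM are model estimates in which reads of copies and overlapping genes were divided, and they are not counts, so no count model was fitted. Symbols were matched for 56550 genes, and all 32 members matched. Coordinates come from GENCODE release 29 (GRCh38), promoters from RefSeq on GRCh38.p14.

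A gene counted as measured from 1 FPKM in any library, which held for 17436 genes. Lines were compared by the log2 ratio of (FPKM + 1). limma used lineage and stage, a mean-variance trend and moderated variances, in two-sided tests adjusted by Benjamini-Hochberg over the measured genes, with 2 residual degrees of freedom. It was tested on simulated data. The members and lists were chosen with earlier results of these data known. Members were described singly if past the size rule against a parent, among the 3 highest of their arm or regulators. From other lists some of the genes past the rule were named, without a fixed number. The limma fit between lineages was added after seeing the data. Software was limma 3.58.1 under R 4.3.3, and numpy 2.4.6, pandas 2.3.3 and matplotlib 3.10.9 under Python 3.11.15.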

Additional observations from a re-analysis of the deposited data

Results flagged for a closer look

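STARD4 and MSMO1 were the 2 members that differed from the parent in opposite directions in the lineages, with both sublines of a lineage on the same side and at least 1 of them past the size rule in each, a pattern of 0.877% of measured genes. STARD4 had log2 ratios of -1.96 in TaxR and -3.32 in CabR, and of 0.94 in DTXR and 1.08 in CTXR. MSMO1 had -0.38 and -1.32, and 2.09 and 1.09. In the limma fit of the difference between lineages, STARD4 differed by 3.65 ± 0.89 (SE) with an adjusted p of 0.42, and MSMO1 by 2.44 ± 0.88 (SE) with an adjusted p of 0.53, so neither passed the threshold.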

How the results depend on the processing

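The medians of both arms and their difference kept their direction with a pseudocount of 0.1, in 3 rescalings of the libraries (median-ratio size factors, same total without mitochondrial genes, same upper quartile) and with the DU145-side share subtracted from TaxR. The difference was 0.75 to 0.77 in TaxR, 0.997 to 1.02 in CabR, 0.32 to 0.35 in DTXR and 0.20 to 0.21 in CTXR. A rescaling divides a whole library by 1 factor and moves the ratios of both arms nearly alike. The difference between the arms could therefore hardly change in the 3 rescalings, and its stability there is not read as a result. With the same upper quartile 5 members were higher in DTXR in place of 8, ACAT2, MVD and DBI having come below the rule, and with the same total 4 were lower in CTXR against DTXR in place of 2. That total moved the median of expressed genes by -0.13 in CTXR against DU145, where MSMO1, STARD4 and ACSS2 came below the rule at 0.96, 0.95 and 0.94. With a pseudocount of 0.1, STARD4 in DTXR and SREBF1 in CabR passed it, at 1.01 and -1.0004. No ratio past the size rule changed sign. A size rule of 1.5-fold gave 7 lower members in TaxR and 11 in CabR, 18 higher and 3 lower in DTXR, 15 higher and 2 lower in CTXR, 4 lower in CabR against TaxR, and 4 higher and 6 lower in CTXR against DTXR. The share of all measured genes past 1.5-fold is not given here, so these counts are not read as a result about the members. The count of members without overlap between lineages, in either direction, was 20 or within 1.5 times of it. Of measured genes 28.6% lay higher in the C4-2B lineage without overlap and 27.2% higher in the DU145 lineage. The count over both directions is therefore not read as a result about the members. limma called 0 members under every alternative that kept all 6 libraries. With a library left out, its stage was held by 1 library, so the counts of those fits are not read as a result about the members. Without replicates or read depth, no counting or replicate error could be given. No paired analysis was possible because each line has 1 library and the labels carry no replicate numbers, beyond lineage as a term in limma.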
